A study of Mus minutoides with 4 samples.

Results

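The Krüppel-like factors (KLFs) are zinc finger transcription factors that bind GC-rich and CACCC-type DNA. Expression of 10 members of the family, *Klf2*, *Klf3*, *Klf4*, *Klf5*, *Klf6*, *Klf7*, *Klf9*, *Klf10*, *Klf12* and *Klf13*, was examined in induced pluripotent stem cells (iPSCs) and fibroblasts of *Mus minutoides*, the African pygmy mouse. The members were taken by gene symbol, and all 10 were found among the 41325 genes of the deposited tables, which hold 17 KLF genes in all. The question was which KLF transcripts are present side by side in each cell type and how the make-up of the family differs between them.

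RNA-seq was performed on iPSC lines 6 and 10 and on fibroblast lines 1 and 2, with 1 library per line (n = 2 per group). The fibroblasts were primary cells grown from tail tips in medium with serum and were not reprogrammed. The iPSCs had been reprogrammed from such fibroblasts with doxycycline-inducible piggyBac plasmids, lines were founded by seeding single cells of a colony after doxycycline had been withdrawn, and culture was in 2i medium on feeder cells (mouse embryonic fibroblasts stopped with mitomycin C). One plasmid carried *Klf4* together with *Oct3/4*, *Sox2* and *c-Myc*, another carried *Glis1*, *Nanog* and *Lin28a*, and a further one carried rtTA and eGFP. No step that removed the feeder cells before RNA extraction is described. Cell type, medium and feeder cells differ together between the groups and cannot be told apart, and since no source used here tells whether different animals gave the lines, the p-values cover the spread between these libraries, which may be technical.

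In mouse embryonic stem cells, *Klf2*, *Klf4* and *Klf5* act in the naive pluripotency network, share many target genes, and can in part replace one another. *Klf4* is fed mainly by LIF and STAT3, and KLF2 protein is stabilised when the ERK pathway is blocked, as the 2i inhibitors do. The family is usually divided by the cofactors its proteins bind: *Klf2*, *Klf4*, *Klf5*, *Klf6* and *Klf7* belong to the group that works with acetyltransferases, *Klf3*, *Klf12* and *Klf8* to the group that recruits the corepressor CtBP, and *Klf9*, *Klf10*, *Klf13*, *Klf11* and *Klf16* to the group that recruits the SIN3 corepressor.

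Exon reads came to 36694828 in iPSC line 6, 33858709 in iPSC line 10, and 33546022 and 33084850 in fibroblast lines 1 and 2. The reads had been placed on the *M. musculus* build GRCm38, and genes whose sequence has diverged may have lost reads. Summed over 8 pluripotency markers, TPM (exon reads per exon length, scaled to one total in each library) was 6139 and 6869 in the iPSC lines and 1.12 and 1.43 in the fibroblast lines. Among these markers, plasmids carried *Oct3/4* (*Pou5f1*), *Sox2* and *Nanog*, and the counts do not separate plasmid from chromosomal transcripts. Summed over 10 fibroblast markers, TPM was 7549 in iPSC line 6 and 4148 in iPSC line 10, against 23563 and 27954 in the fibroblast lines. By this sum iPSC line 6 held 29.3% and line 10 held 16.1% of the fibroblast mean. Most of the sum was *Col1a1*, *Col1a2* and *Col3a1*. By the rule given below, 7 of the 10 were called lower (22.3% of all genes tested) and 0 higher. *Dcn* had 374 and 120 TPM in iPSC lines 6 and 10 and 108 and 130 TPM in the fibroblast lines. *Lum* had 478 and 68.1 TPM against 451 and 541 TPM. Macrophage markers (8 genes) summed to 242 and 585 TPM in the iPSC lines and 1.73 and 2.15 TPM in the fibroblast lines, where *Adgre1*, *Lyz2*, *Tyrobp* and *Aif1* had no exon read. Endothelial markers (8 genes) summed to 29.9 and 22.9 TPM in the iPSC lines and 2.11 and 3.03 TPM in the fibroblast lines. Most of the endothelial sum in the iPSC lines was 1 gene, *Tek*, at 20.9 and 13.7 TPM. Keratinocyte markers (8 genes) summed to 9.56 and 9.07 TPM in the iPSC lines and 20.9 and 21.5 TPM in the fibroblast lines. In fibroblast line 1, 1 gene model, CT010467.1, took 3.53% of the exon reads, against 0.134% to 0.219% in the other libraries, which lowers every other TPM of that library. In such bulk libraries, fewer cells of a type and less RNA per cell cannot be told apart.

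All 10 members were expressed in both cell types and passed the filter on low counts. *Klf2* was the 1 member called higher in iPSCs, and *Klf3*, *Klf6*, *Klf7*, *Klf9* and *Klf12* were called lower. A gene was called when edgeR's quasi-likelihood test on exon reads gave an adjusted p under 0.05 and a fold over 2. Of the 17777 genes tested, 27.1% were called higher and 22.3% lower (49.4% in all), so 5 of 10 members lower and 1 of 10 higher stand beside those shares. *Klf4*, *Klf5*, *Klf10* and *Klf13* were not called. Without the fold threshold 70.8% of all genes and also *Klf10* were called. In TPM, both iPSC lines lay above both fibroblast lines for 1 member (48.7% of all genes tested) and below them for 7 (37.8% of all genes tested), while the groups overlapped for *Klf5* and *Klf13*.

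**Figure D1:**
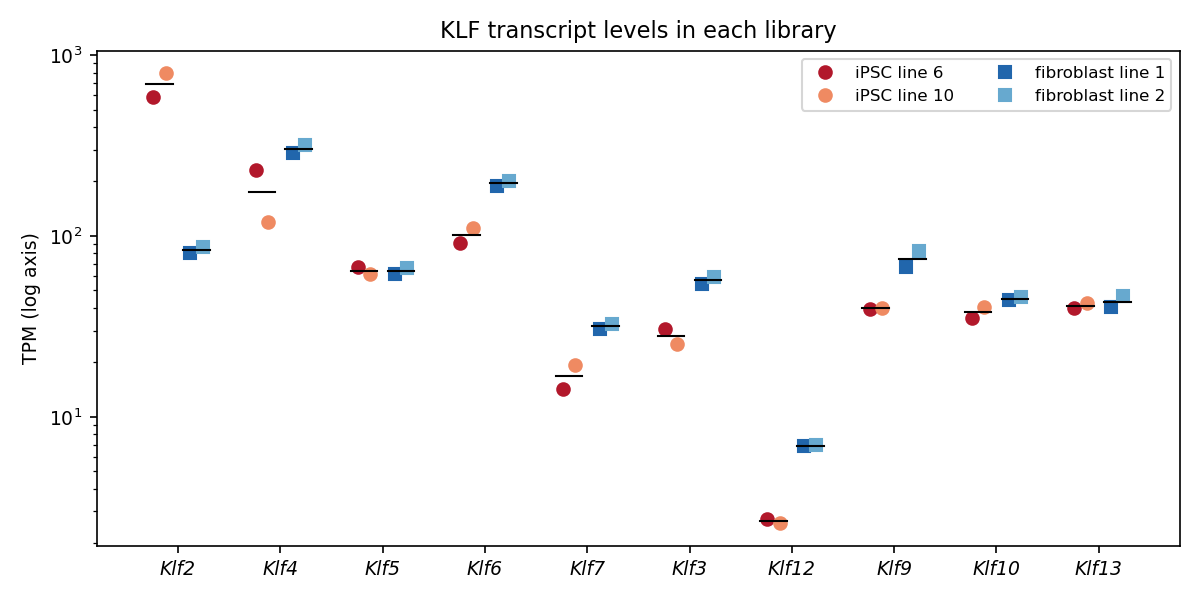
TPM of the 10 KLF genes (log axis) in iPSC lines 6 and 10 (circles) and fibroblast lines 1 and 2 (squares), with the mean of each group as a bar. *Klf2* sits at 583 and 793 TPM in iPSCs, above its 80.6 and 87.4 TPM in fibroblasts, and *Klf5* and *Klf13* overlap between the groups.

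The order of the levels differed between the cell types at its top. In iPSCs *Klf2* was first at 688 ± 148 TPM, followed by *Klf4* at 176 ± 79.7 TPM, *Klf6* at 101 ± 13.8 TPM and *Klf5* at 64.1 ± 4.06 TPM (SD, n = 2). In fibroblasts *Klf4* was first at 302 ± 19.7 TPM, followed by *Klf6* at 196 ± 8.66 TPM, *Klf2* at 84.0 ± 4.77 TPM, *Klf9* at 74.7 ± 10.9 TPM and *Klf5* at 64.1 ± 3.47 TPM (SD, n = 2). *Klf7* and *Klf12* were the lowest members in both. Neighbours in the order whose library ranges overlapped were *Klf13*, *Klf9* and *Klf10* in iPSCs, and *Klf2* with *Klf9* and *Klf10* with *Klf13* in fibroblasts. All other neighbours had ranges that did not overlap. TPM divides by annotated exon length, from 1847 bases for *Klf2* to 11243 for *Klf3*, so this order depends on those lengths.

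The summed TPM of the 10 genes was 1136 in iPSC line 6 and 1255 in iPSC line 10, against 864 and 946 in fibroblast lines 1 and 2, a ratio of the means of 1.32. *Klf2* made up 51.4% and 63.2% of that sum in the iPSC lines and 9.33% and 9.24% in the fibroblast lines. *Klf4* made up 20.5% and 9.54% in the iPSC lines and 33.4% in each fibroblast line. *Klf6* fell in share too, with 8.0% and 8.79% in the iPSC lines and 22.0% and 21.4% in the fibroblast lines. Without *Klf2*, the other 9 members summed to 552 and 462 TPM in iPSCs and to 783 and 858 TPM in fibroblasts. The fibroblast lines had nearly the same make-up, whereas the iPSC lines differed from each other in how much of the sum was *Klf2* and how much *Klf4*.

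**Figure D2:**
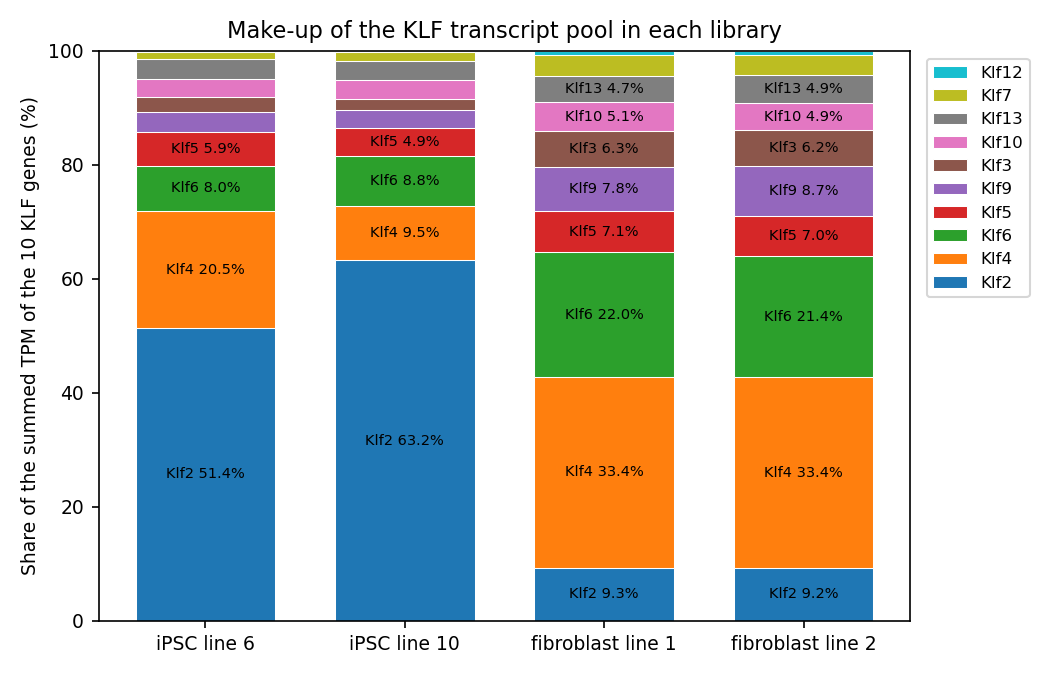
Share of the summed TPM of the 10 KLF genes held by each gene, in percent, as 1 stacked bar per library. *Klf2* takes 51.4% and 63.2% of the bar in iPSC lines 6 and 10 and 9.33% and 9.24% in fibroblast lines 1 and 2, where *Klf4* takes 33.4% in each.

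*Klf2*, a factor of the naive network that is also known from endothelial and lymphoid quiescence, lies on chromosome 8 from 72319033 to 72321656 of GRCm38 (ENSMUSG00000055148). It had 11779 and 14863 exon reads in iPSC lines 6 and 10 and 1385 and 1384 in fibroblast lines 1 and 2. Both iPSC libraries lay far above both fibroblast libraries, with line 10 the higher. The log2 fold change was 2.90 (SE, the standard error, 0.16, edgeR adjusted p = 0.000357), and 12.2% of the genes tested had a larger one. Among the genes with a TPM above 0, 0.923% and 0.614% were above *Klf2* in the iPSC lines and 10.0% and 10.5% in the fibroblast lines. Macrophage markers, which were near 0 in fibroblasts, were also higher in line 10 than in line 6, and their part in the *Klf2* level was not tested.

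*Klf4*, a reprogramming factor and a gene of skin barrier formation, lies on chromosome 4 from 55527143 to 55532466 (ENSMUSG00000003032). It had 232 TPM in iPSC line 6 and 119.7 TPM in line 10, against 289 and 316 TPM in the fibroblast lines. Each iPSC library was below each fibroblast library, but line 6 was 1.94 times line 10, whereas the fibroblast lines differed by 1.10 times. Among genes with a mean of at least 50 exon reads, 7.37% had a larger ratio between the iPSC lines. The log2 fold change was -0.90 (SE 0.34, 95% interval -1.80 to -0.01), and *Klf4* was not called (edgeR adjusted p = 0.0664). The adjusted p was 0.0147 with DESeq2 and 0.0463 with limma on log2(TPM + 1), but 0.128 with limma without the filter. The log2 fold changes there, -0.90, -0.85 and -0.85, were within the fold threshold. The call depended on which iPSC line was used: without line 6 *Klf4* was called lower with a log2 fold change of -1.49, and without line 10 the log2 fold change was -0.50. On total gene reads, which include introns and where 23.5% of all genes tested were called higher and 21.1% lower (44.5% in all), *Klf4* was called lower at -1.07. Fibroblast markers were likewise higher in line 6 than in line 10 (their sum, mostly collagen genes, was 29.3% and 16.1% of the fibroblast mean). Their part in the difference was not tested, and the counts do not separate plasmid *Klf4* from the chromosomal gene.

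The iPSC line with more *Klf2* had less *Klf4*. The ratio of *Klf2* to *Klf4* TPM was 2.51 in iPSC line 6 and 6.63 in line 10, and 0.279 and 0.276 in the fibroblast lines. The sum of the pair was 816 and 913 TPM in the iPSC lines, most of it *Klf2*, and 369 and 404 TPM in the fibroblast lines. With 1 library per line, the difference between the iPSC lines has no replicate check.

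*Klf5*, which acts in the inner cell mass, trophectoderm and intestinal crypt, lies on chromosome 14 from 99298691 to 99315036 (ENSMUSG00000005148). Its level was 66.99 and 61.2 TPM in iPSC lines 6 and 10 and 61.6 and 66.5 TPM in fibroblast lines 1 and 2. The ranges of the groups coincided almost fully. The log2 fold change was -0.13 (SE 0.09, 95% interval -0.36 to 0.10, edgeR adjusted p = 0.247), and its sign was positive with total counts or upper-quartile scaling and on log2 TPM. In TPM, *Klf2* was 8.71 and 12.95 times as abundant as *Klf5* in the iPSC lines and 1.31 times in both fibroblast lines. In exon reads not divided by length, *Klf2* was below *Klf5* in the fibroblast lines (1385 and 1384 against 2981 and 2968). Together *Klf2*, *Klf4* and *Klf5* summed to 883 and 974 TPM in iPSCs and to 431 and 470.2 TPM in fibroblasts.

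*Klf6* and *Klf7*, the remaining members of the acetyltransferase-binding group, were both called lower in iPSCs. *Klf6*, an early response gene known from activated stellate cells of the liver, lies on chromosome 13 from 5861482 to 5870394 (ENSMUSG00000000078). It had 90.8 and 110.4 TPM in iPSC lines 6 and 10 and 189.8 and 202 TPM in fibroblast lines 1 and 2. The groups did not overlap, and the log2 fold change was -1.09 (SE 0.11, edgeR adjusted p = 0.00131). *Klf7*, known for its role in neurite outgrowth, lies on chromosome 1 from 64029447 to 64122282 (ENSMUSG00000025959). It had 14.3 and 19.4 TPM in the iPSC lines and 30.7 and 32.7 TPM in the fibroblast lines, a log2 fold change of -1.04 (SE 0.16, edgeR adjusted p = 0.00428). Both calls were just past the fold threshold. Without iPSC line 6 neither was called, at -0.98 for *Klf6* and -0.86 for *Klf7*. *Klf7* was the member with many reads placed at several sites: 78.3% and 75.1% of its exon reads were unique in the iPSC lines and 62.0% and 61.6% in the fibroblast lines. On unique exon reads, where 22.4% of all genes tested were called lower (49.6% in all), its log2 fold change was -0.73, which did not pass the fold threshold, so its fall is uncertain. In the other members at least 97.3% of exon reads were unique in every library.

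Both members of the CtBP-binding group fell in iPSCs. *Klf3*, a repressor known from blood and fat cells, lies on chromosome 5 from 64803388 to 64832901 (ENSMUSG00000029178). It had 30.6 and 25.1 TPM in iPSC lines 6 and 10 and 54.5 and 58.9 TPM in fibroblast lines 1 and 2 (log2 fold change -1.15, SE 0.13, edgeR adjusted p = 0.00173). *Klf12*, known as a repressor of the AP-2alpha gene, lies on chromosome 14 from 99870632 to 100284679 (ENSMUSG00000072294). It was the scarcest member, with 2.71 and 2.58 TPM in the iPSC lines and 6.89 and 6.94 TPM in the fibroblast lines, and the one with the largest fall (log2 fold change -1.51, SE 0.16, edgeR adjusted p = 0.00147). *Klf12* lies 555595 bases from *Klf5* with no protein-coding gene between them in the annotation, and the pair did not share a pattern: *Klf12* fell and the groups overlapped for *Klf5*.

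*Klf8*, which also encodes a CtBP-binding repressor, is not one of the 10 members and went the other way. It had 34.1 and 46.2 TPM in iPSC lines 6 and 10 and 2.85 and 3.001 TPM in fibroblast lines 1 and 2, a log2 fold change of 3.63 (SE 0.18, edgeR adjusted p = 0.000296). In TPM, *Klf3* was 0.897 and 0.544 times as abundant as *Klf8* in the iPSC lines and 19.1 and 19.6 times in the fibroblast lines. These ratios depend on the annotated exon length, 11243 bases for *Klf3* and 5206 for *Klf8*. In exon reads, *Klf3* exceeded *Klf8* in both iPSC lines (3762 and 2864 against 1941 and 2439). *Klf3* and *Klf12* alone summed to 33.3 and 27.7 TPM in iPSCs and to 61.4 and 65.9 TPM in fibroblasts. With *Klf8* added, the group summed to 67.4 and 73.9 TPM in iPSCs and to 64.3 and 68.9 TPM in fibroblasts, and these ranges overlapped. The sums depend on the annotated lengths too.

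In the SIN3-binding group, *Klf9* was called lower and *Klf10* and *Klf13* were not called. *Klf9*, a gene induced by glucocorticoid and thyroid hormone, lies on chromosome 19 from 23141226 to 23166911 (ENSMUSG00000033863). It had 39.4 and 40.0 TPM in iPSC lines 6 and 10 and 66.98 and 82.5 TPM in fibroblast lines 1 and 2, and its libraries were closer to each other in iPSCs than in fibroblasts. The log2 fold change was -1.03 (SE 0.09, edgeR adjusted p = 0.000902), and without fibroblast line 2 it was -0.98 and not called. *Klf10*, an early gene of the TGF-beta response, lies on chromosome 15 from 38291463 to 38300706 (ENSMUSG00000037465). It had 35.1 and 40.5 TPM in the iPSC lines and 44.2 and 46.0 TPM in the fibroblast lines. Its adjusted p was 0.0214 (edgeR) but its log2 fold change of -0.39 (SE 0.10) was within the fold threshold. *Klf13*, known from T cells and heart development, lies on chromosome 7 from 63886351 to 63938915 (ENSMUSG00000052040). It had 39.8 and 42.7 TPM in the iPSC lines and 40.3 and 46.5 TPM in the fibroblast lines, with overlapping groups and a log2 fold change of -0.20 (SE 0.07, 95% interval -0.40 to -0.00, edgeR adjusted p = 0.0638) that turned positive with total counts.

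**Figure D3:**
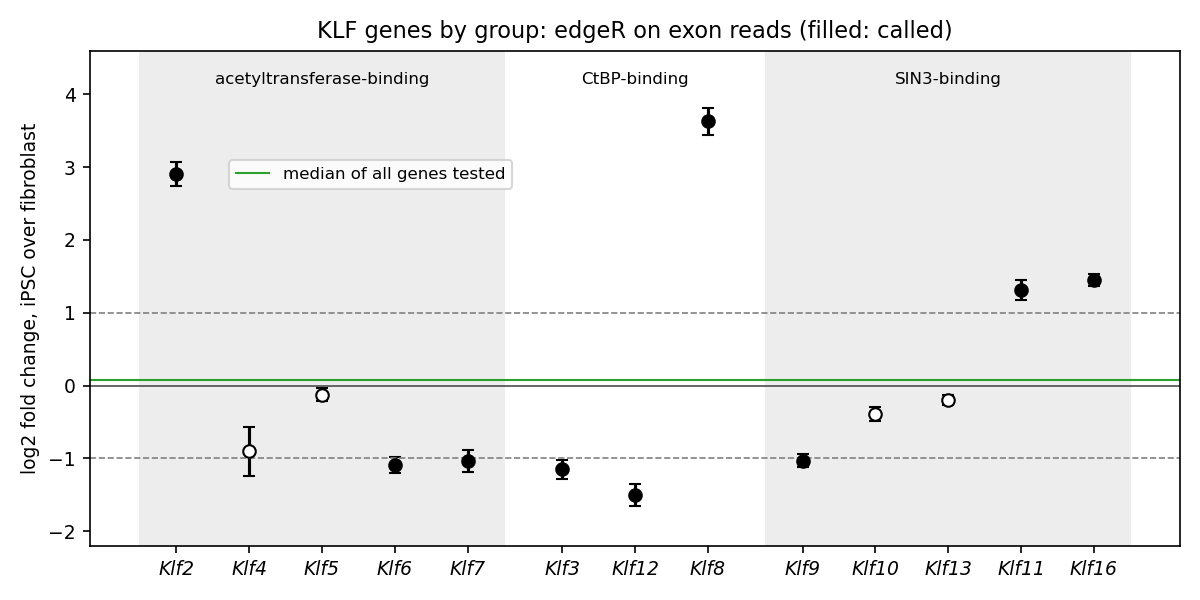
Log2 fold change (iPSC over fibroblast, edgeR on exon reads, error bars show the SE) of the 10 members and of *Klf8*, *Klf11* and *Klf16*, ordered by the cofactors the proteins are known to bind; filled points were called, dashed lines mark a 2-fold change and the green line the median of all genes tested (0.08). *Klf2* at 2.90 and *Klf8* at 3.63 stand above the others of their groups, and *Klf3*, *Klf6*, *Klf7* and *Klf9* lie at -1.15 to -1.03, next to the threshold.

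The scale mattered for the members close to the threshold. The median log2 fold change of all genes tested was 0.08 with TMM, 0.36 with total counts and 0.26 with upper-quartile scaling, and with total counts 5768 genes (32.4%) were called higher and 3028 lower (49.5% in all), against 4818 and 3962 with TMM. With total counts *Klf3* had a log2 fold change of -0.87, *Klf6* one of -0.80, and *Klf7* and *Klf9* one of -0.75 each, and none of these was called, so that *Klf12* alone was called lower. Relative to the median of all genes under the same scaling, the values hardly moved: *Klf3* was at -1.23 with TMM and with total counts, *Klf6* at -1.17 and -1.16, *Klf9* at -1.11 under both, and *Klf2* at 2.82 and 2.83.

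**Figure D4:**
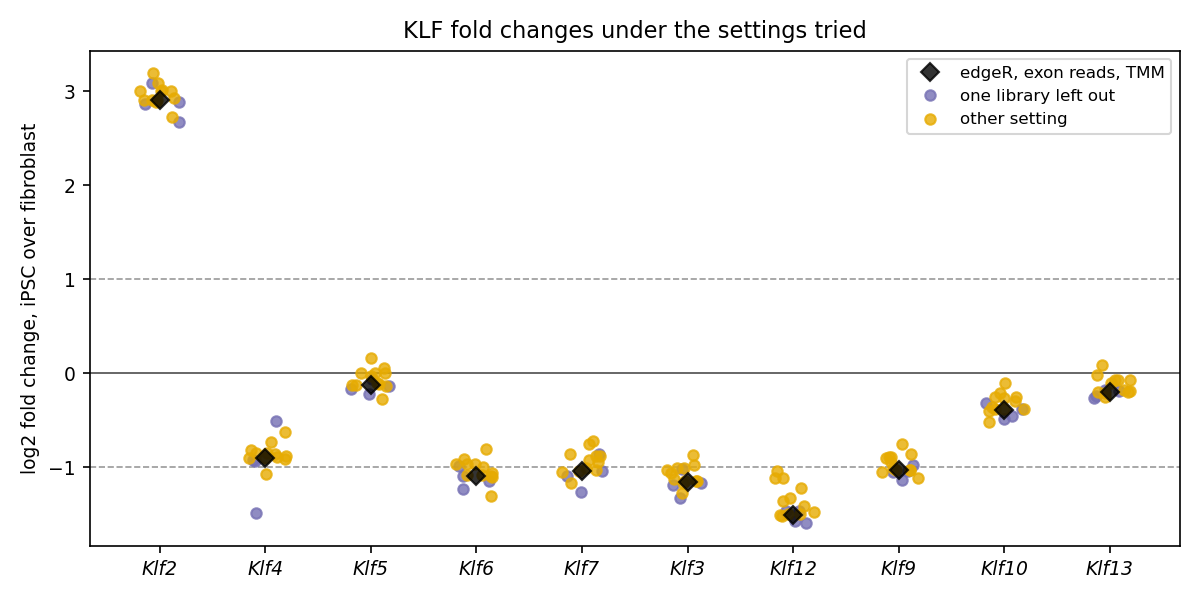
Log2 fold change (iPSC over fibroblast) of each member by edgeR on exon reads with TMM (diamonds), with 1 library left out (purple) and under other scalings, filters, tools and exon or gene read sets (yellow; intron and junction reads are not drawn), with dashed lines at a 2-fold change. The lowest point of *Klf2* here is 2.67, without iPSC line 10, and the points of *Klf3*, *Klf6*, *Klf7* and *Klf9* fall on both sides of the lower line.

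Reads in introns and across exon-exon junctions gave a partly different picture from exon reads. Intron reads come mostly from unspliced RNA, and a coding sequence joined by 2A peptides, as on the *Klf4* plasmid, holds no intron. On intron reads, a comparison chosen after seeing the data, *Klf2* and *Klf13* were called higher and *Klf3*, *Klf4*, *Klf5*, *Klf6* and *Klf7* lower, that is 2 and 5 of 10, where 19.1% of all genes tested were called higher and 17% lower (36.1% in all). *Klf6* had 152 and 90 intron reads in iPSC lines 6 and 10 and 726 and 680 in fibroblast lines 1 and 2, a log2 fold change of -3.08 (SE 0.22). *Klf4* had 259 and 123 in the iPSC lines and 647 and 524 in the fibroblast lines, a log2 fold change of -2.17 (SE 0.30). *Klf13* went the opposite way, with 268 and 229 in the iPSC lines and 72 in each fibroblast line, a log2 fold change of 1.21 (SE 0.17). For *Klf2* the log2 fold change was 1.74 (SE 0.17), for *Klf5* -1.38 (SE 0.22), and for *Klf12* -0.05 (SE 0.16).

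The share of a gene's reads that lay in introns also differed between the groups in several members. For *Klf6* it was 3.37% and 1.80% in the iPSC lines and 8.56% and 8.20% in the fibroblast lines, and for *Klf4* 3.24% and 3.22% in the iPSC lines and 7.33% and 5.96% in the fibroblast lines. The share was also lower in iPSCs for *Klf2* and *Klf5*. The part of plasmid reads in the *Klf4* share was not tested. *Klf2* had 4.12% and 3.89% in the iPSC lines and 7.42% and 7.49% in the fibroblast lines. *Klf5* had 1.81% and 1.73% in the iPSC lines and 3.78% and 3.67% in the fibroblast lines. *Klf12* had 48.8% and 50% in the iPSC lines and 24.2% and 23.0% in the fibroblast lines. *Klf13* had 7.56% and 6.56% in the iPSC lines and 2.49% and 2.34% in the fibroblast lines. Over all genes, the intron share was higher in both iPSC lines than in both fibroblast lines. Intron reads were 4981459 of 41676287 gene reads in iPSC line 6 and 4882779 of 38741488 in iPSC line 10. They were 4093502 of 37639524 in fibroblast line 1 and 3385137 of 36469987 in fibroblast line 2. No gene annotated within the span of *Klf13* or *Klf12* held more than 3 reads in any library. The source of the intron reads of these genes was not tested. On junction reads, where 26.2% of all genes tested were called higher and 21.8% lower, *Klf2* was called higher (log2 fold change 3.04) and *Klf3* and *Klf12* lower (-1.11 and -1.42), and *Klf6* and *Klf7* were at -0.42 and 0.07. Whether the folds differ between classes of read was not tested.

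**Figure D5:**
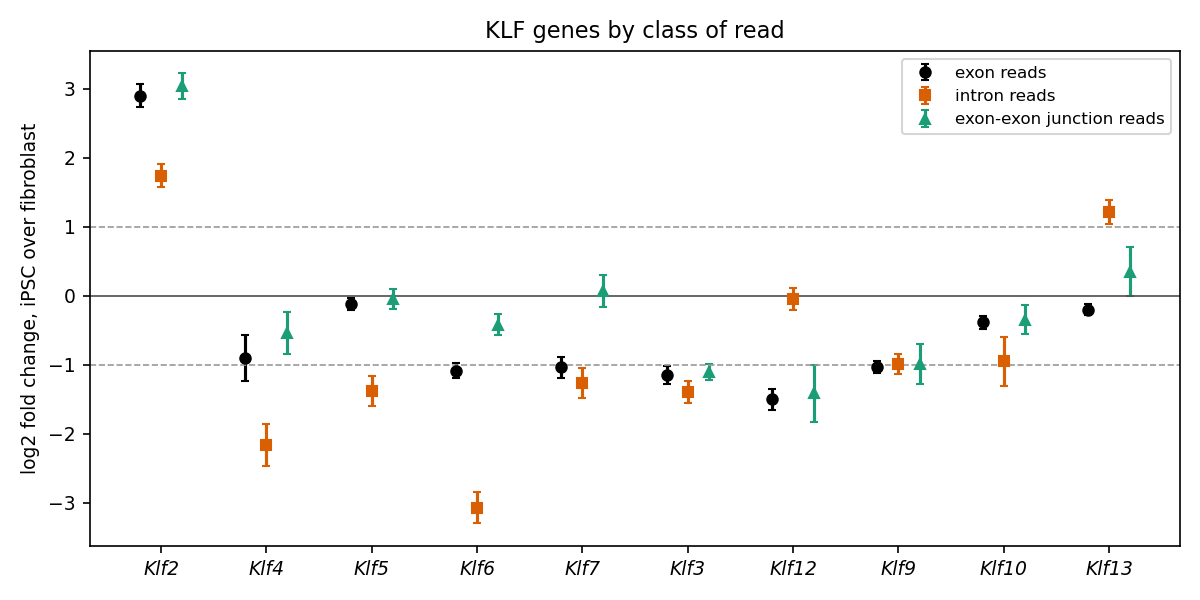
Log2 fold change (iPSC over fibroblast, edgeR fitted to each class of read, error bars show the SE) of the 10 members on exon reads (black circles), intron reads (orange squares) and exon-exon junction reads (green triangles). *Klf6* lies at -1.09 on exon reads and -3.08 on intron reads, and *Klf13* at -0.20 on exon reads and 1.21 on intron reads.

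Of the 7 other KLF genes, 6 passed the filter, 4 were called higher and 0 lower (0 lower also at an unadjusted p under 0.05 and by DESeq2), beside 27.1% higher and 22.3% lower of all genes tested, with a median log2 fold change of 1.40 beside 0.08 over all genes tested. Besides *Klf8*, the higher ones were *Klf11*, *Klf15* and *Klf16*. *Klf16*, a SIN3-binding gene also known as a regulator of dopamine receptor genes, had 113 and 127 TPM in iPSC lines 6 and 10 and 38.5 and 41.8 TPM in fibroblast lines 1 and 2 (log2 fold change 1.45, SE 0.09). *Klf11*, the close relative of *Klf10*, had 20.6 and 21.8 TPM in the iPSC lines and 8.05 and 7.49 TPM in the fibroblast lines (log2 fold change 1.31, SE 0.14). *Klf15* was at few reads, 96 and 39 in the iPSC lines and 17 and 16 in the fibroblast lines. *Klf1*, *Klf14* and *Klf17* had at most 19 exon reads in any library. *Klf1* and *Klf14*, which count in the median, passed the filter through the iPSC libraries alone.

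Adding these genes changed the balance of the SIN3-binding group. *Klf9*, *Klf10* and *Klf13* summed to 114 and 123 TPM in iPSC lines 6 and 10 and to 151 and 175 TPM in fibroblast lines 1 and 2. With *Klf11*, *Klf16* and the scarce *Klf14*, which was also counted in this group, the 6 genes summed to 249 and 273 TPM in the iPSC lines. In the fibroblast lines they summed to 198 and 224 TPM. *Klf16* alone thus exceeded each of *Klf9*, *Klf10* and *Klf13* in iPSCs. Over all 17 KLF genes the sum was 1309 and 1453 TPM in iPSCs and 915 and 999 TPM in fibroblasts, a ratio of the means of 1.44.

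The SP genes encode the nearest relatives of the KLFs and bind the same kind of GC-rich site. Of 9 tested, 4 were called higher and 0 lower (1 lower at an unadjusted p under 0.05, and 0 by DESeq2), with a median log2 fold change of 1.04. Of all genes tested 27.1% were called higher and 49.4% in either direction, so the number of SP genes called is near that of genes at large. The widely expressed *Sp1*, *Sp2* and *Sp3* were not called: *Sp1* had 47.9 and 44.8 TPM in iPSC lines 6 and 10 and 31.3 and 35.1 TPM in fibroblast lines 1 and 2, and *Sp3* had 84.7 and 84.2 TPM in the iPSC lines and 86.5 and 98.8 TPM in the fibroblast lines. *Sp2* had 40.5 and 48.1 TPM in the iPSC lines and 35.6 and 43.8 TPM in the fibroblast lines. The higher ones were scarce. Of these, *Sp5*, *Sp6* and *Sp8* had at most 3 exon reads in either fibroblast library. They passed the filter through the iPSC libraries alone and could only be called higher, so the count and the median partly reflect the filter. *Sp5*, a WNT target, had 87 and 253 exon reads in iPSC lines 6 and 10 and 1 and 0 in the fibroblast lines. *Sp6* had 232 and 206 exon reads in the iPSC lines and 2 and 1 in the fibroblast lines, and *Sp8* had 237 and 184 in the iPSC lines and 3 and 0 in the fibroblast lines. *Sp4* had a log2 fold change of 1.04 (SE 0.17).

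KLF proteins recruit CtBP, SIN3 and histone deacetylase complexes. Of 11 genes for these corepressors, 4 were called higher and 1 lower, with a median log2 fold change of 0.46, and 5 of 11 is close to the 49.4% called among all genes tested. *Ctbp2* had 98.7 and 110.5 TPM in iPSC lines 6 and 10 and 26.3 and 27.3 TPM in fibroblast lines 1 and 2 (log2 fold change 1.83, SE 0.09), while its paralog *Ctbp1*, chosen after its value was seen, was the one called lower (log2 fold change -1.45). *Sap30*, a SIN3 complex subunit, rose by 2.36 on the log2 scale and *Hdac2* by 1.49, and *Hdac1*, at 151 and 156 TPM in iPSCs and 79.1 and 90.6 TPM in fibroblasts, did not pass the fold threshold. Of 6 genes for acetyltransferase coactivators and their partners, 1 was called higher and 1 lower, beside 49.4% called in either direction among all genes tested, with a median of 0.29: *Wdr5* had a log2 fold change of 2.05 and *Kat2b* one of -1.46, and *Ep300*, at 0.93, was not called.

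Genes of pathways that feed the KLF genes were called in both directions. Of 8 genes from ERK5 to the MEF2 factors, which induce *Klf2* and *Klf4* in endothelium, 1 was called higher and 3 lower, with a median of -0.75, where 27.1% of all genes tested were called higher and 22.3% lower. *Mef2c* had 1.013 and 1.004 TPM in iPSC lines 6 and 10 and 15.9 and 16.8 TPM in fibroblast lines 1 and 2 (log2 fold change -4.13), *Mef2b* had a log2 fold change of 4.34 and *Mef2a* one of -1.38, and *Mef2d* was not called (-0.37). On total gene reads none of the 8 was called higher. Of 7 genes of the LIF and STAT3 pathway, which induces *Klf4*, 2 were called higher and 4 lower, with a median of -1.15, beside the same 27.1% and 22.3% of all genes tested. The feedback inhibitor and STAT3 target *Socs3* had 127 and 98.3 TPM in the iPSC lines and 18.6 and 20.3 TPM in the fibroblast lines (log2 fold change 2.41), and *Lif* had a log2 fold change of 2.35. The gp130 receptor gene *Il6st* had 99.7 and 60.4 TPM in the iPSC lines and 287 and 329 TPM in the fibroblast lines (log2 fold change -2.07). *Lifr*, the other receptor chain, had 24.1 and 12.3 TPM in the iPSC lines and 12.7 and 14.3 TPM in the fibroblast lines and was not called. Like *Klf4*, *Lifr* and *Il6st* were higher in iPSC line 6 than in line 10. So were *Lif*, *Jak1*, *Stat3* and *Socs3*, and so were the fibroblast markers, whereas *Jak2* was not (20.1 and 22.1 TPM). Any link between these differences and that of *Klf4* was not tested.

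Of 8 genes for ubiquitin ligases and partners in KLF protein turnover, 1 was called lower and 0 higher (2 higher at an unadjusted p under 0.05, and 0 by DESeq2), beside 22.3% lower and 27.1% higher of all genes tested, with a median of -0.08. The one lower was *Wwp1*, whose protein targets KLF2 and KLF5 for degradation, with 23.0 and 21.1 TPM in the iPSC lines and 44.2 and 51.5 TPM in the fibroblast lines (log2 fold change -1.24), and *Smurf1* was at -0.02. With total counts *Wwp1* was not called.

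Partners of *Klf2*, *Klf4* and *Klf5* in the naive network were nearly absent from fibroblasts, in contrast to the KLF genes. Of 12, 11 were called higher and 1 lower, beside 27.1% higher and 22.3% lower of all genes tested, with a median log2 fold change of 10.36, also with genes that had no fibroblast read at their lower bound. Most of the 12 had almost no fibroblast read and passed the filter through the iPSC libraries alone. Such genes could only be called higher, so the count describes the list and is not a test of it. *Zfp42* had 14184 and 11521 exon reads in iPSC lines 6 and 10 and 0 and 1 in fibroblast lines 1 and 2. *Sall4* had 11017 and 10905 in the iPSC lines and 0 and 1 in the fibroblast lines. *Sox2*, which a plasmid also carried, had 18308 and 20652 in the iPSC lines and none in the fibroblast lines. Plasmids also carried *Oct3/4* (*Pou5f1*) and *Nanog*, which are among the 12 partners. The one called lower, *Nr0b1*, chosen after its value was seen, had only 4 and 6 exon reads in the iPSC lines and 12 in each fibroblast line, and was not called when any library was left out. The summed TPM of the 12 partners was 1.59 and 1.93 in the fibroblast lines, where *Klf2*, *Klf4* and *Klf5* summed to 431 and 470.2 TPM.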

How the data were processed

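Illumina libraries of total RNA (NEBNext Ultra II kit) were analysed, 2 per group. The authors deposited per gene the counts of total and unique reads in genes, exons, introns and exon-exon junctions, with TPM, RPKM (not used) and fractions of unique and intron reads (deposited by the authors and recomputed here as percentages). Gene and exon lengths and the other annotation columns are as the authors deposited them. GRCm38 is the build named in the submitters' processing notes. Aligner and counter: not given in the sources used here. Deposited TPM equals exon reads over exon length, brought to one total per library.

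Total exon reads were tested with edgeR 4.0.16 (R 4.3.3): filterByExpr, TMM, quasi-likelihood test, prior count 2, Benjamini-Hochberg adjustment over all genes tested. Standard errors are the log2 fold change over the root of the F statistic, and 95% intervals use its degrees of freedom. TMM factors were 1.09 and 1.12 for iPSC lines 6 and 10 and 0.891 and 0.920 for fibroblast lines 1 and 2. The paper states no count test for RNA-seq. Alternatives were DESeq2 1.42.0, limma 3.58.1 on log2(TPM + 1) and log2(TPM + 0.1), other scalings, filters, thresholds and read sets, and each library left out. Intron reads, junction reads and the removal of CT010467.1 were chosen after seeing the data. Simulated data with known changes were used to test the edgeR fit. An exact permutation test of 2 against 2 libraries cannot go below p = 0.333 and was not used.

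The members and gene lists were chosen with earlier results of these data known. All members were named in full, other KLF and SP genes with a mean of at least 50 exon reads by value, and from each other list up to 3 called members with the largest change and 1 not called. A bound uses a floor of 3 counts over the group, which covers counting error only. No protein or promoter sequences were used here.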

Additional observations from a re-analysis of the deposited data

How the results depend on the processing

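Of 160 values of the members under the alternatives other than leaving out a library, 118 kept their direction and their side of the threshold; *Klf2* kept both in all. *Klf12* did so except on intron reads (-0.0474). With glmTreat (same folds, a test against a 2-fold change) *Klf3* (-1.15), *Klf6* (-1.09), *Klf7* (-1.04) and *Klf9* (-1.03) were not called, and 1 member was called lower. With total counts these were -0.87, -0.80, -0.75 and -0.75, *Klf5* was 0.16, *Klf13* was 0.0853, and 1 member was called lower. With upper-quartile scaling they were -0.98, -0.91, -0.86 and -0.85, *Klf5* was 0.0519, and 1 was called lower. With a mean of at least 50 reads *Klf6*, *Klf7* and *Klf9* were -0.997, -0.94 and -0.94, with limma on log2(TPM + 1) -0.96, -0.88 and -0.89 with or without the filter, and with log2(TPM + 0.1) -0.97, -0.92 and -0.90, and 2 members were called lower in each. In the 3 limma fits *Klf5* was 0.000746, 0.000746 and 0.000751. On unique exon reads *Klf7* was -0.73, and on total gene reads *Klf4* was called lower (-1.07). With no fold threshold *Klf10* (-0.39) was called, and 5965 genes were called lower. On intron reads *Klf4* (-2.17), *Klf5* (-1.38) and *Klf13* (1.21) were called, *Klf9* (-0.99) was not, and 2 members were called higher. On junction reads *Klf6* (-0.42), *Klf7* (0.0668) and *Klf9* (-0.99) were not called, *Klf13* was 0.35, and 2 members were called lower. Unless the alternative itself shows it (fewer genes, another threshold), the cause was not tested.

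With each library left out (the lone library of its group is then assumed to vary like the other group), *Klf4* ranged from -1.49 to -0.50, *Klf6* from -1.23 to -0.98, *Klf7* from -1.27 to -0.86 and *Klf9* from -1.14 to -0.98; 4 to 5 members were called lower. SP genes called lower ranged from 0 to 1, coactivators called higher from 1 to 2, and naive partners called lower stayed at 0. On total gene reads 1 SP gene was called lower and 0 ERK5 and MEF2 genes higher. With total counts 2 coactivators were called higher, 2 LIF and STAT3 genes lower, 0 turnover genes lower and 0 naive partners lower, and with upper-quartile scaling 2 coactivators higher and 0 naive partners lower.

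From unique exon reads, *Klf2*, *Klf4* and *Klf5* held 9.42%, 33.9% and 7.19% of the summed TPM in fibroblasts. As shares of exon reads not divided by length, *Klf2* and *Klf5* held 34.8% and 9.14% in iPSCs, and the 3 genes in the same order 3.90%, 23.2% and 8.39% in fibroblasts. Of all 17 KLF genes *Klf5* held 4.67% in iPSCs, and the 3 genes held 8.78%, 31.6% and 6.70% in fibroblasts. Removing CT010467.1 changed no call of a member. No paired analysis was possible because the labels give the groups no shared numbers. With 2 libraries per group, a change close to the fold threshold cannot be placed on either side of it.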
